A study of Mus musculus with 9 samples.

Results

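The integrated stress response was followed through 10 genes chosen by symbol: Atf4, Atf5, Ddit3, Ddit4, Asns, Trib3, Chac1, Sesn2, Psat1 and Phgdh. All 10 are among the 21939 genes of the deposited count table, and all 10 passed the filter on low counts that left 15127 genes. RNA was sequenced from long-term haematopoietic stem cells (LT-HSCs) of C57BL/6 mouse bone marrow, by a sort for Sca1+ cKit+ cells that lack lineage markers, CD34 and Flt3. The young group came from mice of 10 to 16 weeks and the aged group from mice over 80 weeks, both labelled control. The aged+Ri group came from mice over 80 weeks and received the RhoA inhibitor Rhosin at 100 µM. All 3 groups spent 16 h in culture before lysis, under 3% O2 and 5% CO2 in buffered salts containing 10% serum, so freshly sorted cells are not represented. Each group has 3 libraries, labelled biological replicates. The number of mice behind a library is not stated, and p-values reflect only the spread between these libraries.

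The integrated stress response starts when a kinase phosphorylates the translation factor eIF2 alpha in response to amino acid shortage, unfolded proteins in the endoplasmic reticulum, haem shortage or double-stranded RNA. General protein synthesis falls, while the Atf4 mRNA is translated better because of upstream reading frames in its leader. ATF4, a basic leucine zipper factor, pairs with C/EBP family partners and switches on genes for amino acid synthesis and import, for tRNA charging, and for feedback control. Because ATF4 is controlled largely at translation, the level of its mRNA is not a measure of its protein, which was not measured here. HSCs are known for a low rate of protein synthesis and for sensitivity to protein stress.

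Several properties of whole libraries accompany the values below. Totals ran from 34358101 to 72503142 counts. Levels are given as CPM, counts scaled to the library total with TMM factors, on which 3 counts equal 0.0410 to 0.0855 CPM depending on the library. The young libraries each had a count for 20129 to 21213 genes, against 15024 to 17987 in aged and 15117 to 16333 in aged+Ri libraries. The mitochondrially encoded share of counts, a measure of RNA and cell state, was 4.14% to 4.68% in young, 2.57% to 3.54% in aged and 1.57% to 2.56% in aged+Ri libraries. Ranges of the sort marker transcripts overlapped between groups, except that in aged+Ri libraries Kit lay below aged and Flt3 below both other groups. Kit was at 264 to 655 CPM in young, 407 to 448 in aged and 87.3 to 325 in aged+Ri libraries. Ly6a (Sca1) was at 445 to 716.8, 337.3 to 538.4 and 221.9 to 540.7 CPM in the same order. Cd34, which the sort selects against at the surface, reached 95.7 CPM in young, 71.97 in aged and 34.3 in aged+Ri libraries. Flt3, also selected against, was at 1.02 to 21.8, 3.37 to 4.52 and 0.0565 to 0.702 CPM in the same order.

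Promoters were examined because ATF4 binds with its C/EBP partners to a composite element, the C/EBP-ATF response element. RefSeq windows for GRCm38.p6, from 250 bases before to 50 bases after each annotated start, were found for all 10 genes (12 windows). The core letters TGATGNAA were searched on both strands. They were present in 3 of the 12 windows, those of Asns, Chac1 and Trib3, and in 3.97% of all 32851 windows. The 3 sites are printed because they belong to genes whose levels are set side by side below, each as 30 bases of the gene's own strand with the matched letters in capitals.

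Asns: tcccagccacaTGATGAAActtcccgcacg
Chac1: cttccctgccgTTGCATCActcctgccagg
Trib3: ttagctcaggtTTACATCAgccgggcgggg

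The Asns stretch is chr6:7693214-7693243 on the minus strand, with the match on the gene's strand from base -23 to -16 before the RefSeq start. GENCODE M21 starts the gene further upstream and places this site in an exon. The Chac1 stretch is chr2:119351038-119351067 on the plus strand, with the match in reverse orientation from base -193 to -186, outside annotated exons. The Trib3 stretch is chr2:152344028-152344057 on the minus strand, with the match in reverse orientation at bases 15 to 22 after the RefSeq start, upstream of the start that GENCODE gives. A second motif, the cyclic AMP response element TGACGTCA, was in 0 of the 12 windows and in 1.79% of all windows. A match in letters is a description and does not show that a factor binds there.

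Levels were compared between genes per kilobase of annotated exon. In young cells the order ran from Ddit3 (157 ± 123 CPM per kilobase, SD, n = 3) and Atf4 (115 ± 19.3), whose ranges overlapped, down to Sesn2 at 0.947 ± 0.763. Between them Trib3, Phgdh, Asns, Psat1, Atf5, Ddit4 and Chac1 followed in that order, each overlapping the next of these 7, while Atf4 did not overlap Trib3 and Chac1 did not overlap Sesn2. Aged cells had Ddit3 first (178 ± 16.8), then Atf4 (92.8 ± 30.03), then Asns (53.5 ± 2.00), and none of these 3 ranges overlapped the next. With the inhibitor, Ddit3 (383 ± 255), Asns (181 ± 118), Atf4 (174 ± 78.3) and Trib3 (79.8 ± 71.6) each overlapped their neighbour, and Trib3 did not overlap Atf5, the next gene. On this per-length scale Asns ranked 5 of 10 in young, 3 of 10 in aged and 2 of 10 in aged+Ri cells.

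**Figure D1:**
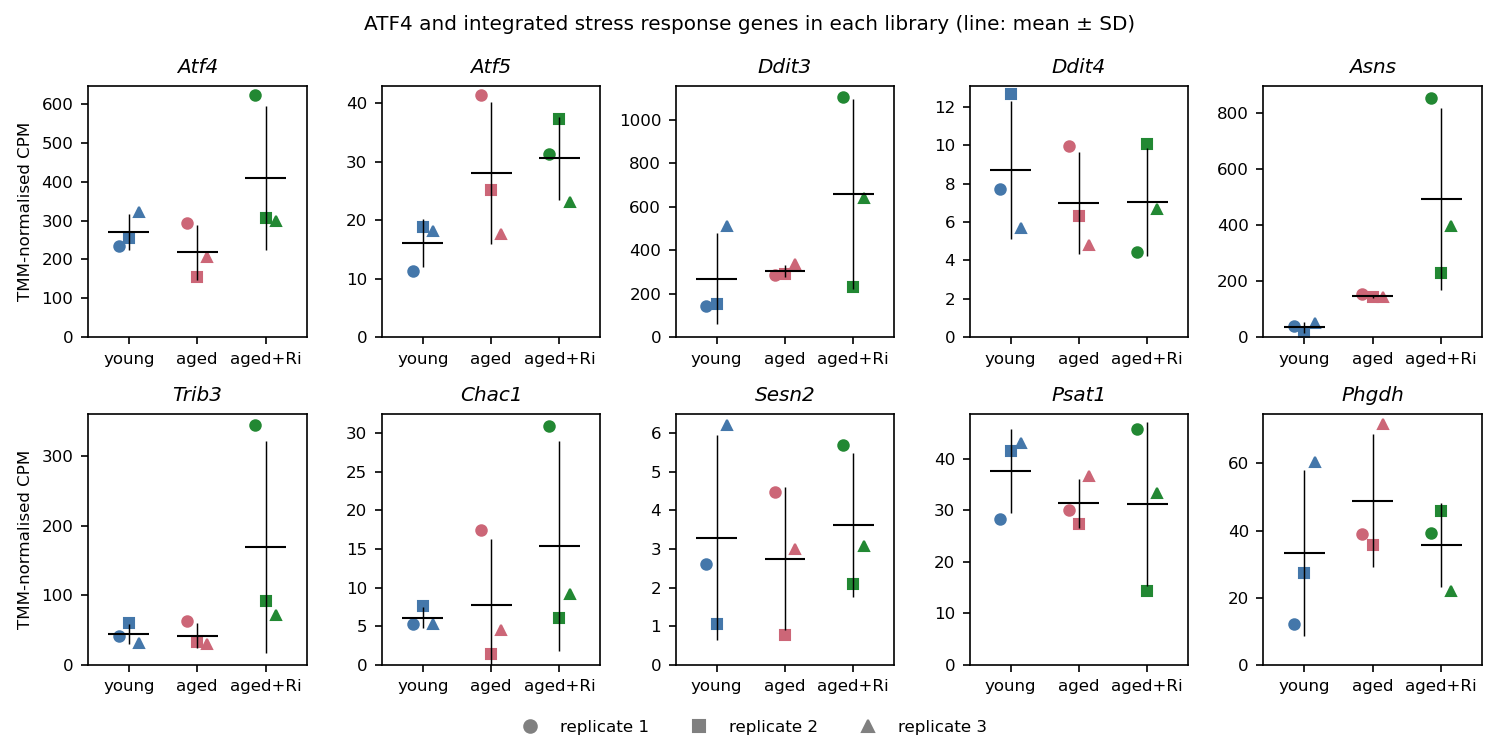
Normalised CPM (linear axis from 0) of the 10 genes in the 9 libraries, with the group on the horizontal axis, a symbol per replicate and a black bar for the mean with its SD. The Asns points lie at 12.8 to 51.1 in young, 141.8 to 152.4 in aged and 228.8 to 855 in aged+Ri libraries, and replicate 1 of aged+Ri is the highest point of 6 panels.

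Atf4 (chromosome 15, 80255184 to 80257541, plus strand, on GRCm38 as for all genes here) encodes the central transcription factor of the response. Its mRNA was at 235.2, 255.8 and 322 CPM in young 1 to 3, at 294.7, 154.5 and 207 CPM in aged 1 to 3, and at 623, 306 and 299.2 CPM in aged+Ri 1 to 3. All 3 aged+Ri libraries lay above all 3 aged ones, narrowly for aged+Ri 3 against aged 1, while young 3 lay above aged+Ri 2 and 3. The log2 change was 0.90 ± 0.36 (SE) for aged+Ri against aged (edgeR adjusted p = 0.47), -0.31 ± 0.35 for aged against young (edgeR adjusted p = 0.706) and 0.59 ± 0.35 for aged+Ri against young (edgeR adjusted p = 0.325). Without aged+Ri 1 the change against aged was 0.46 (edgeR adjusted p = 0.997).

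Atf5 (chromosome 7, 44812256 to 44816658, minus strand), a related factor with translational control like that of Atf4 and a role in mitochondrial stress, was at 11.4, 18.9 and 18.1 CPM in young, 41.4, 25.2 and 17.6 in aged, and 31.3, 37.3 and 23.1 in aged+Ri libraries. Aged+Ri libraries did not overlap young ones, but aged libraries overlapped both. Its log2 change was 0.80 ± 0.53 for aged against young and 0.93 ± 0.53 for aged+Ri against young (edgeR adjusted p = 0.465 and 0.308). An exon of Atf5 overlaps Nup62 and Il4i1 on the other strand, and no source states that reads were counted by strand, which leaves its counts uncertain.

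Ddit3 (chromosome 10, 127290774 to 127296288, plus strand) encodes CHOP, a C/EBP family factor that ATF4 induces and that promotes cell death under lasting stress. It was at 144.9, 151.8 and 512 CPM in young, 286.5, 289.9 and 338 in aged, and 1103, 229.1 and 638 in aged+Ri libraries. Young 3 stood well above the other young libraries, and aged+Ri 2 lay below every aged library, so no pair of groups was separate. The log2 change was 1.11 ± 0.54 for aged+Ri against aged and 1.28 ± 0.55 against young (edgeR adjusted p = 0.58 and 0.181). Without young 3 the latter was 2.16 and passed the threshold (edgeR adjusted p = 0.0377). The end of Ddit3 overlaps Mars, a tRNA synthetase gene on the other strand, and its start overlaps the transcript Gm4189, also on the other strand. GENCODE lists 2 gene identifiers under the symbol. The counts of Ddit3 are therefore uncertain in the same way as those of Atf5.

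Trib3 (chromosome 2, 152337422 to 152344032, minus strand), a pseudokinase that ATF4 and CHOP induce and that feeds back on ATF4, was at 41.9, 60.0 and 30.9 CPM in young, 63.4, 32.3 and 30.7 in aged, and 345, 92.2 and 71.7 in aged+Ri libraries. Every aged+Ri library lay above every library of the other groups. The log2 change was 2.01 ± 0.57 against aged and 1.94 ± 0.57 against young, and neither passed (edgeR adjusted p = 0.346 and 0.0906). For aged against young it was -0.07 ± 0.55 (edgeR adjusted p = 0.966). Aged+Ri 1 was 4.21 times the mean of the other aged+Ri libraries, and without it the change against aged was 0.96 (edgeR adjusted p = 0.862). The Trib3 site printed above lies next to its start.

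Asns (chromosome 6, 7675169 to 7693254, minus strand) encodes asparagine synthetase and is a classical target of ATF4 under amino acid shortage. It was at 41.4, 12.8 and 51.1 CPM in young, 152.4, 144.7 and 141.8 in aged, and 855, 228.8 and 398 in aged+Ri libraries. The groups were fully separate and ordered as young, aged and aged+Ri. This order with no overlap was found for 119 of 15127 genes tested (0.787%) and for 1 of the 10 genes here, Asns. Asns rose in aged+Ri against young cells, by a log2 change of 3.81 ± 0.56, or 14.1-fold (edgeR adjusted p = 0.0131). That call held in all 19 alternatives run, with log2 changes from 3.20 to 4.23 and adjusted p from 1.68e-07 to 0.0492. In 1 of these young 1 was the only young library, so that the spread came from the other groups and the lone library was assumed to vary like them. The steps between were 2.06 ± 0.52 for aged against young and 1.75 ± 0.52 for aged+Ri against aged, neither of which passed (edgeR adjusted p = 0.173 and 0.374).

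The coefficient of variation of Asns was 3.74% over the aged libraries, 56.7% over the young and 65.6% over the aged+Ri libraries. Its lowest library, young 2, and its highest, aged+Ri 1, were 66.7-fold apart, the widest span of the 10 genes. The step from young to aged passed with DESeq2 (log2 change 1.97, DESeq2 adjusted p = 0.0312). Without aged+Ri 1 the step from aged to aged+Ri was 1.09 (edgeR adjusted p = 0.812).

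Phgdh and Psat1 encode enzymes of serine synthesis, the first of which oxidises 3-phosphoglycerate and the next of which adds the amino group. Neither separated the groups as Asns did. Phgdh (chromosome 3, 98313170 to 98339990, minus strand) was at 12.3, 27.4 and 60.5 CPM in young, 39.0, 35.8 and 71.6 in aged, and 39.3, 45.8 and 21.9 in aged+Ri libraries. Psat1 (chromosome 19, 15904678 to 15947337, minus strand) was at 28.2, 41.6 and 43.1 CPM in young, 30.01, 27.4 and 36.7 in aged, and 45.9, 14.3 and 33.4 in aged+Ri libraries. Groups overlapped in every comparison for both genes. Their log2 changes for aged+Ri against aged were -0.45 ± 0.58 for Phgdh and -0.01 ± 0.50 for Psat1 (edgeR adjusted p = 0.909 and 0.999). Phgdh had estimated counts that were not whole numbers in all 9 libraries, while Atf4, Trib3 and Psat1 had 1 such library each. Reads that Phgdh may share with near-identical copies cannot be told apart in this table, so its values are uncertain.

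Chac1 (chromosome 2, 119351229 to 119354381, plus strand) encodes an enzyme that degrades glutathione and is induced by ATF4. It was at 5.32, 7.65 and 5.30 CPM in young, 17.4, 1.37 and 4.48 in aged, and 31.0, 6.03 and 9.15 in aged+Ri libraries. Replicate 1 was the highest library in both aged groups, and no groups were separate. The log2 change was 0.99 ± 0.99 for aged+Ri against aged (edgeR adjusted p = 0.856), and -0.04 without aged+Ri 1.

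Ddit4 and Sesn2 encode stress-induced proteins that restrain the growth kinase complex TORC1, and both had low counts. Ddit4 (chromosome 10, 59949669 to 59951834, minus strand) was at 7.74, 12.7 and 5.70 CPM in young, 9.94, 6.31 and 4.78 in aged, and 4.44, 10.1 and 6.66 in aged+Ri libraries. Sesn2 (chromosome 4, 132492032 to 132510501, minus strand) was at 2.61, 1.05 and 6.22 CPM in young, 4.47, 0.777 and 3.00 in aged, and 5.70, 2.09 and 3.08 in aged+Ri libraries, from 41 to 327 counts. All 3 groups overlapped for both genes. Their log2 changes for aged+Ri against aged were 0.01 ± 0.83 and 0.40 ± 1.19 (edgeR adjusted p = 0.999 and 0.975). Aged+Ri 1, the highest library for 6 of the 10 genes, was the lowest for Ddit4.

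The comparison of aged with young cells asks what differs with the age of the mouse. By edgeR 0 of the 10 genes passed, where 5 of 15127 genes did (0.0331%). At an unadjusted p under 0.05 there was 1 of the 10, Asns, against 16.2% of all genes, and DESeq2 called 1 of the 10, again Asns, and 744 of all genes. Limma-voom and edgeR's newer quasi-likelihood method called 0 of the 10, and 18 and 21 of all genes. Asns was also the 1 gene of the 10 whose aged libraries all lay above the young ones, a state found in 8.58% of all genes tested. The median log2 change of the 10 was 0.05, with 5 of 10 positive, beside -0.13 over all genes, of which 45.3% were positive. The median was -0.33 without aged 1 and 0.44 without young 3.

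The comparison of aged+Ri with aged cells asks what the inhibitor does in cells of aged mice. By edgeR 0 of the 10 genes passed and 0 of all genes did (0%). At an unadjusted p under 0.05 there were 3 of the 10, Atf4, Asns and Trib3, all higher, against 9.14% of all genes in either direction. DESeq2, limma-voom and edgeR's newer quasi-likelihood method called 318, 55 and 5 of all genes, and 0 of the 10. Those 3 genes were also the ones with no overlap between groups, where 7.87% of all genes were higher without overlap. The median log2 change was 0.65, with 8 of 10 positive, beside -0.06 over all genes, of which 47.2% were positive. Without aged+Ri 1 it was 0.18 with 6 of 10 positive, and without aged 2 it was 0.27.

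For aged+Ri against young cells, which differ in both age and inhibitor, 1 of the 10 genes passed by edgeR, Asns, against 219 of 15127 genes (1.45%), of which 145 were higher (0.959%). DESeq2 called 2 of the 10, adding Trib3, and 1862 of the 15127 genes. Asns, Trib3 and Atf5 had no overlap between groups, all higher, where 12.4% of all genes were higher without overlap. At an unadjusted p under 0.05 there were 3 of the 10, Ddit3, Asns and Trib3, against 23.4% of all genes. The median log2 change was 0.76, with 8 of 10 positive, beside -0.24 over all genes, of which 42.6% were positive. It was 0.28 without aged+Ri 1. Each group serves in 2 of the 3 comparisons, and the aged libraries are shared by the first and the second.

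**Figure D2:**
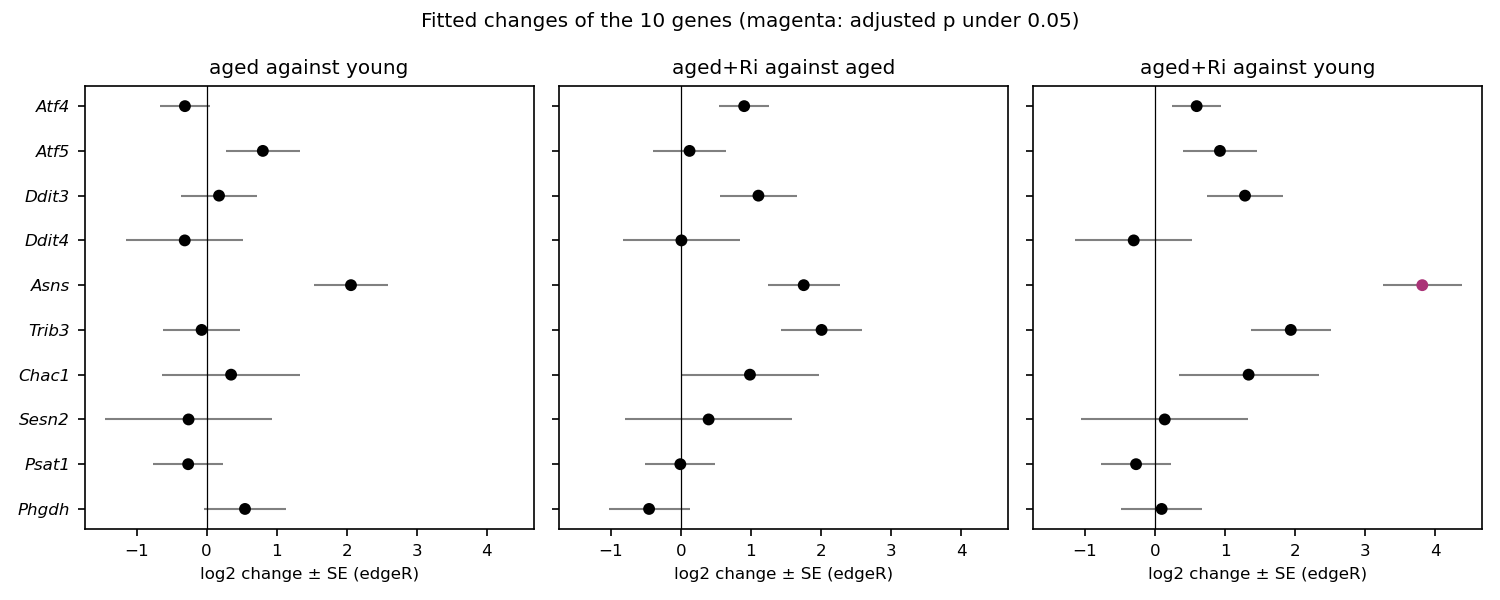
Fitted log2 changes (horizontal axis, log2 scale) of the 10 genes with SE bars, in 3 panels for the 3 comparisons. Asns for aged+Ri against young, at 3.81, is the 1 point with an adjusted p under 0.05. Psat1, Phgdh, Ddit4 and Sesn2 lie within 1 SE of 0 in all 3 panels.

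Within a library the ratio of a gene to Atf4 does not depend on scaling to depth. Asns was at 17.6%, 5.00% and 15.8% of the Atf4 CPM in young, 51.7%, 93.7% and 68.5% in aged, and 137.3%, 74.8% and 132.9% in aged+Ri libraries. This ratio was separate between aged and young, a state in the higher direction for 11.7% of genes, and overlapped between aged+Ri and aged. Of the 9 members set against Atf4, 2 were higher in this way in aged against young, Asns and Atf5. Atf5 ran from 4.83% to 7.37% of Atf4 in young and from 8.51% to 16.3% in aged libraries. Trib3 was at 17.8%, 23.4% and 9.59% of Atf4 in young, 21.5%, 20.9% and 14.8% in aged, and 55.4%, 30.1% and 24.0% in aged+Ri libraries. Its ratio was higher without overlap in aged+Ri against aged, which 1.11% of genes showed, and among the 9 members set against Atf4 it was the 1 in that state. For Psat1 the ratio ran from 12.01% to 16.2% in young and from 4.68% to 11.2% in aged+Ri libraries, which was lower without overlap, as in 24.4% of genes. Against young, Asns and Trib3 had ratios higher without overlap in aged+Ri libraries, as 5.36% of genes did. These ratios describe unequal change of the paired genes and do not say which of them changed.

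The sequencing batch could be held fixed for part of the comparison of aged+Ri with aged. In batch 1 (aged+Ri 1 minus aged 1) the difference in log2 CPM was 1.08 for Atf4, 2.49 for Asns, 2.44 for Trib3 and 1.94 for Ddit3. In batch 2 (the mean of aged+Ri 2 and 3 minus aged 2) it was 0.97, 1.06, 1.33 and 0.40 for the same genes. In each batch 8 of the 10 differences were positive, with a median of 0.72 in batch 1 and 0.68 in batch 2, beside 0 and -0.08 over all genes. The negative genes differed: Atf5 and Ddit4 were negative in batch 1, Psat1 and Phgdh in batch 2. For aged minus young, Asns differed by 3.50 in batch 2 and 1.47 in batch 3, while Atf4 differed by -0.73 and -0.64. There 4 of the 10 differences were positive in batch 2 with a median of -0.51, and 2 of the 10 in batch 3 with a median of -0.24, beside -0.16 and -0.15 over all genes. These are differences of 1 or 2 libraries and carry no test.

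**Figure D3:**
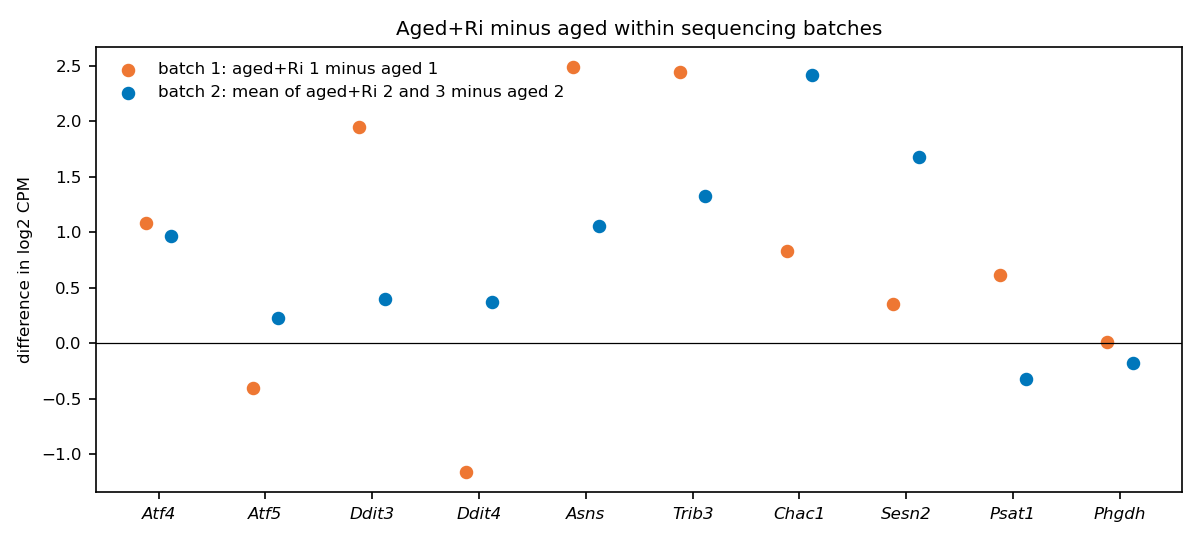
Differences in log2 CPM (vertical axis) between aged+Ri and aged libraries within sequencing batch 1 and batch 2 for the 10 genes. Atf4, Asns, Trib3, Ddit3, Chac1 and Sesn2 lie above 0 in both batches, and Atf5, Ddit4, Psat1 and Phgdh change sign.

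Other genes of the pathway were read from lists in the same fit. For aged+Ri against aged 0 members of any of these lists passed by edgeR, as 0 of all 15127 genes did (0%). Of 11 amino acid transporters under ATF4, 8 had positive changes with a median of 0.83, which was 0.39 without aged+Ri 1. Of these 11, 5 were higher without overlap, a state of 7.87% of all genes, and Slc1a5, a glutamine transporter named after its values were seen, was lower without overlap (28.4 to 40.3 CPM in aged and 7.47 to 22.4 in aged+Ri libraries). Among them Slc3a2, the heavy chain of several exchangers, was at 318, 268 and 218.2 CPM in aged and 1711, 511 and 635 in aged+Ri libraries (log2 1.83 ± 0.40, edgeR adjusted p = 0.228). Slc7a11, the cystine transporter that pairs with it, was at 16.9, 3.40 and 19.0 CPM in aged and 194.8, 60.2 and 42.6 in aged+Ri libraries (2.92 ± 0.82, edgeR adjusted p = 0.346). Of 11 other transcription factors of the pathway 9 were positive, with a median of 0.71. Cebpg, an ATF4 partner, was at 71.1, 72.2 and 100.6 CPM in aged and 399, 159.3 and 211.1 in aged+Ri libraries (1.66 ± 0.45, edgeR adjusted p = 0.335). Of 18 tested members of the list of other ATF4 and CHOP outputs, 16 were positive with a median of 0.80, which was 0.45 without aged+Ri 1.

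In the enzymes of serine, one-carbon and proline synthesis, 8 of 13 changes were positive with a median of 0.45, and the median was -0.04 without aged+Ri 1. Mthfd2, a mitochondrial folate enzyme, was at 75.8, 41.6 and 58.7 CPM in aged and 283.0, 73.7 and 199.2 in aged+Ri libraries (log2 1.66 ± 0.45, edgeR adjusted p = 0.335), with aged+Ri 2 just below aged 1. Of 14 tRNA synthetases and transport genes 11 were positive, with a median of 0.40 that was 0.02 without aged+Ri 1. Sars, the seryl-tRNA synthetase gene, was at 133.7, 108.8 and 111.6 CPM in aged and 476, 194.2 and 285.7 in aged+Ri libraries (1.43 ± 0.38, edgeR adjusted p = 0.335). The eIF2 alpha kinases, phosphatase subunits and eIF2 had a median of 0.23 over 11 genes. Ppp1r15a, the inducible phosphatase subunit GADD34 that reverses eIF2 alpha phosphorylation, was at 63.3, 28.9 and 76.6 CPM in aged and 266.2, 71.7 and 92.0 in aged+Ri libraries (1.35 ± 0.68, edgeR adjusted p = 0.587).

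A further list covers the ATF6 and XBP1 arms of the unfolded protein response, which ATF4 does not head. It holds chaperones and other genes of these arms, such as that of the transcription factor XBP1. This list had the highest median of the pathway lists for aged+Ri against aged, at 1.74 over 18 genes of which 17 were positive. Without aged+Ri 1 its median was 0.71. Hspa5 encodes BiP, the most abundant chaperone of that compartment. It was at 158.2, 148.8 and 219.2 CPM in aged and 2072, 163.7 and 521 in aged+Ri libraries, so that aged+Ri 2 lay among the aged libraries (log2 2.39 ± 0.78, edgeR adjusted p = 0.419). Hspa5 was named after its values were seen. Lists for other known inducers of Ddit4 and Sesn2 had medians of 0.07 over 8 glucocorticoid-responsive genes, -0.10 over 10 hypoxia genes and 0.24 over 10 p53 targets. The list of Sestrins and other TORC1 regulators, which includes Sesn2, had a median of -0.20 over 10 genes.

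**Figure D4:**
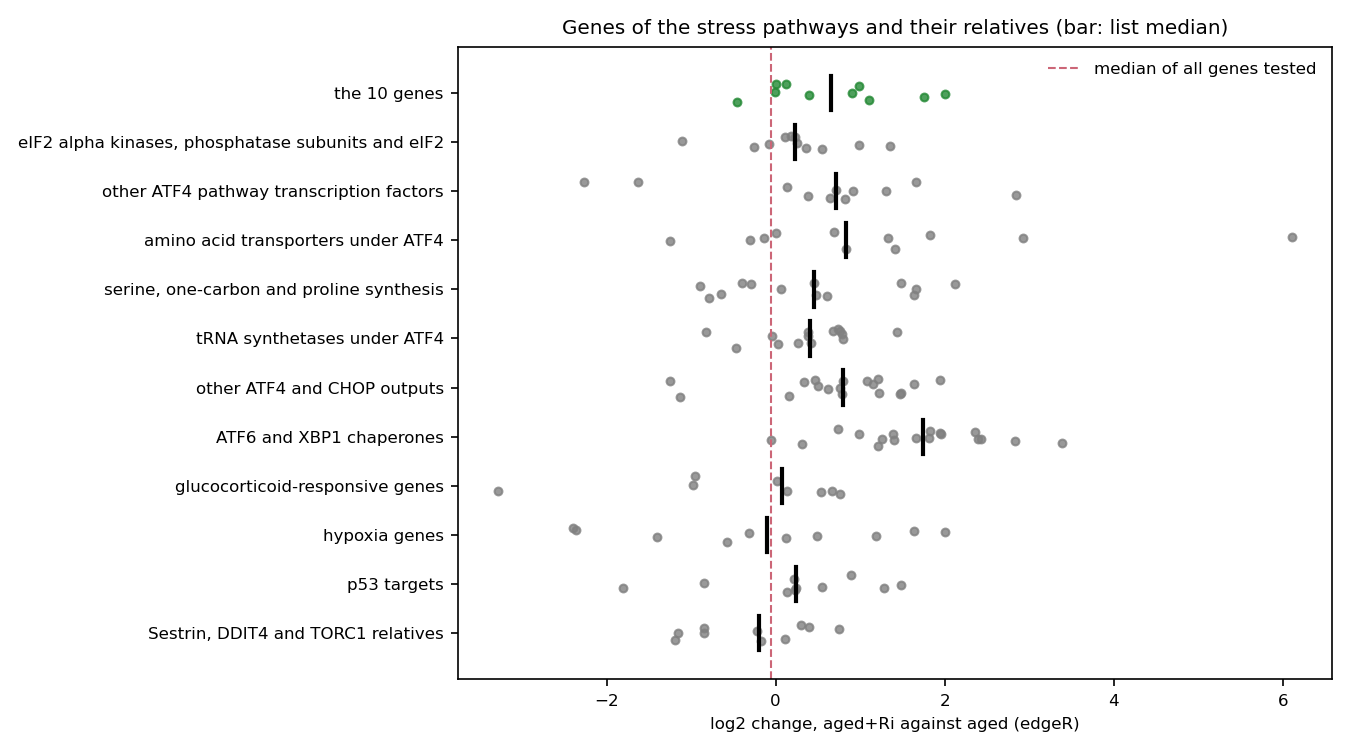
Log2 changes (horizontal axis, log2 scale) for aged+Ri against aged of the tested members of each fixed list, with a black bar at each list's median and a dashed line at the median of all genes tested. The 10 genes have their median at 0.65, and the list labelled ATF6 and XBP1 chaperones has its median furthest to the right at 1.74. The point near 6 is Slc6a9, which was at 0.0318 CPM or less in the aged libraries.

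Against young cells, where 0.959% of all genes passed as higher, single genes of these lists passed. In aged+Ri cells Slc3a2 rose by 2.17 ± 0.41 on the log2 scale (edgeR adjusted p = 0.0257), the 1 of 11 transporters to pass. Sars rose by 1.82 ± 0.39 (edgeR adjusted p = 0.0384), 1 of 14 synthetases, and Nupr1, a stress-induced chromatin regulator, rose by 1.67 ± 0.32 (edgeR adjusted p = 0.0258), 1 of 11 factors. Eif4ebp1, which encodes the translation repressor 4E-BP1, rose by 1.77 ± 0.36 (edgeR adjusted p = 0.0345), 1 of 18 other outputs. Of the 18 genes in the ATF6 and XBP1 list 5 rose, namely Pdia6, Xbp1, Dnajb9, Manf and Sdf2l1, and 0 fell (Sdf2l1 was named after its values were seen). The lists for serine and one-carbon enzymes and for eIF2 alpha kinases had 0 calls. Without aged+Ri 1 the transporter, synthetase, factor and output lists had 0 calls and the ATF6 and XBP1 list 1. Calls over all genes were then 29 higher and 5 lower of 16726 tested.

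For aged against young, 0 members of these lists passed by edgeR, where 5 of 15127 genes did (0.0331%). Nupr1 was at 1062, 697 and 489 CPM in young and 2449, 2603 and 1479 in aged libraries (log2 1.54 ± 0.32, edgeR adjusted p = 0.129). Slc38a2, an amino acid transporter of the pathway, had the other sign, at 713, 881 and 491 CPM in young and 466, 453.9 and 313 in aged libraries (-0.76 ± 0.33, edgeR adjusted p = 0.284). The sensor kinase gene Eif2ak4 (GCN2) was at 66.3, 60.7 and 32.0 CPM in young and 25.5, 28.9 and 5.13 in aged libraries (-1.42 ± 0.62, edgeR adjusted p = 0.282). Ppp1r15a, of the same list, went the other way (1.75 ± 0.68, edgeR adjusted p = 0.251). Its levels were 3.70, 28.0 and 18.5 CPM in young and 63.3, 28.9 and 76.6 in aged libraries. Of the 11 genes of that list 5 were positive and 6 negative. Medians over the pathway lists ran from -0.68 for the transporters to 0.47 for the other transcription factors. Both changed sign with 1 library left out: the transporters' median was 0.13 without young 3, and that of the factors was -0.61 without aged 3.

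Markers of other cell types also varied between libraries. In bulk RNA, fewer cells of a type and less RNA per cell cannot be told apart. The summed level of 15 myeloid markers was 1090 to 3765 CPM in young, 482 to 10490 in aged and 95.1 to 151.6 in aged+Ri libraries. That of 7 mast cell and basophil markers was 19.1 to 125.8, 24.2 to 283.4 and 5.01 to 5.99 CPM in the same order, with Prss34 at 0 in every aged+Ri library. The 11 lymphoid, T, NK and B cell markers summed to 109 to 1598, 73.3 to 523 and 6.65 to 105.6 CPM, with Cd8a at 0 in every aged+Ri library. The 10 HSC markers summed to 1644 to 2914, 1723 to 2285 and 1187 to 1956 CPM. In aged+Ri cells 7 of these 10 had negative log2 changes, both against aged and against young. Procr went the other way, at 48.0 to 96.2 CPM in young, 76.4 to 144.5 in aged and 180.8 to 409.3 in aged+Ri libraries. Against young it was the 1 HSC marker to pass (log2 1.96 ± 0.42, edgeR adjusted p = 0.0394), where 1.45% of all genes did. The sum of 9 erythroid and megakaryocyte markers was 211.0 to 523 CPM in young, 110.6 to 474.5 in aged and 549.8 to 974 in aged+Ri libraries, with Car1 and Gp9 at 0 in every aged+Ri library. Most of the aged+Ri sum was the globin gene Hba-a1, at 620.4, 428 and 899.7 CPM. Over the 8 markers of this list that were tested, the median log2 change was -1.47 against aged with 5 negative, and -1.93 against young with 7 negative. The 7 stromal and endothelial markers summed to between 19.6 and 65.8 CPM in all libraries. The part of these shifts, and of the lower mitochondrial share in aged+Ri libraries, in the differences of Atf4, Asns and Trib3 was not tested.

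The genes most like the 10 were sought over the 9 libraries among 9750 genes with a mean of at least 5 CPM, as a description. With the mean z-score of the 10 genes, the highest Pearson correlations were 0.99 for Sltm, 0.94 for Arhgdia, 0.93 for Fam13b, 0.93 for H2-Q6 and 0.92 for Stx18. With Atf4 alone they were 0.95 for Smndc1, 0.93 for Rmnd5b and 0.92 for Slc7a11. Aged+Ri 1 had the highest mean z-score, at 1.11, followed by aged 1 at 0.43, and young 1 had the lowest at -0.72. The 9 points share library and depth across genes, and these values carry no test.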

How the data were processed

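RNA sequencing of 9 LT-HSC libraries was analysed from 1 table of estimated counts as deposited by the authors. Library kits were SMART-Seq v4 and Nextera XT per the labels' protocols. The submitters' processing notes name featureCounts, STAR 2.7.0, cutadapt 1.18, SAMtools 1.14 and R 4.2.0, with GRCm38 as the build. Counting options are not given in the sources used here. Between 71.6% and 80.9% of values in a library were whole within 0.005.

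Counts were rounded, filtered with filterByExpr and scaled by TMM. All 9 libraries entered 1 quasi-likelihood fit with a mean per group, leaving 6 residual degrees of freedom (edgeR 4.0.16, R 4.3.3). Tests were two-sided, with Benjamini-Hochberg adjustment over 15127 genes and a threshold of 0.05. The steps were tested on simulated counts. There edgeR recovered 0% to 1.04% of log2 changes of size 1 and 40.4% to 49.0% of those of size 3. DESeq2 recovered 63.6% to 68% of those of size 3, with 77 to 93 false calls where edgeR made 2 to 5. A gene that did not pass is therefore not shown to be unchanged. The SE is the log2 change divided by the root of the F statistic. Coordinates and exon lengths come from GENCODE M21, promoters from RefSeq.

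The labels give sequencing batches. Batch 1 holds aged 1 with aged+Ri 1. Batch 2 holds young 2, aged 2, aged+Ri 2 and aged+Ri 3. Batch 3 holds young 3 with aged 3. Young 1 was sequenced in batches 1 and 3 and was set to batch 3 where batch was a term.

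The members, lists and alternatives were chosen with earlier results of these data known. All members were described. For each list the text may name the 4 genes of smallest p, and for likeness the 5 and 3 genes most correlated with the members and with Atf4. Alternatives were DESeq2 1.42.0 or its size factors, limma-voom (limma 3.58.1) with sample weights, edgeR's newer method, no filter, a stricter filter, only the 2 groups compared, the replicate number, batch, and leaving out each library. Young 1 as the only young library, and lists without single libraries, were added after the data were seen. The values of 1 gene are not reported here.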

Additional observations from a re-analysis of the deposited data

How the results depend on the processing

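The call of Asns for aged+Ri against young held in every one of the 19 alternatives. The number of all genes called varied far more, and the cause was not tested. For aged against young it was 5, and 744 with DESeq2, 18 with limma-voom, 21 with the newer method, 20 without a filter, 1 with only the 2 groups, 358 where young 1 alone stood for the young group (chosen after seeing the data), and from 2 to 80 leaving out 1 library. For aged+Ri against aged it was 0, and 318, 55, 5, 11 and 2 under the first 5 of these, 2 with the replicate block, and from 0 to 6 leaving out 1 library. For aged+Ri against young it was 219, and 1862 with DESeq2, 626 with limma-voom, 463 with the newer method, 57 with only the 2 groups, 32 with batch as a covariate, 735 with young 1 alone, and from 18 without aged+Ri 3 to 532 without young 3. Of the 10 genes, DESeq2 called 1 for aged against young and 2 for aged+Ri against young, where leaving out libraries gave 1 or 2.

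The members' median log2 change for aged against young was -0.34 with batch as a covariate, -0.33 to 0.44 leaving out 1 library. Between aged+Ri and aged it was 1.09 with batch and 0.18 to 0.98 leaving out 1 library. Between aged+Ri and young it was 1.54 with young 1 alone and 0.28 to 1.01 leaving out 1 library.

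Asns kept its sign throughout, and the sign changes below are of values that missed the threshold. For aged against young, Chac1 was -0.27 with limma-voom, -0.45 with the replicate block and -0.97 with batch. With young 1 alone Trib3 was 0.073, Sesn2 0.14 and Psat1 0.21. Leaving out 1 library gave -0.12 to 1.05 for Ddit3, -0.63 to 0.13 for Ddit4, -0.47 to 0.27 for Trib3, -1.07 to 0.88 for Chac1 and -0.74 to 0.60 for Sesn2. In aged+Ri against aged, Ddit4 was -0.014 with limma-voom, -0.042 without a filter, -0.0058 with the stricter filter, -0.0086 with only the 2 groups, -0.014 with the replicate block and -0.29 with batch, and Psat1 was 0.019 with DESeq2 and with its size factors. Leaving out 1 library gave -0.15 to 0.44 for Atf5, -0.31 to 0.27 for Ddit4, -0.041 to 2.39 for Chac1, -0.10 to 0.94 for Sesn2 and -0.40 to 0.35 for Psat1. In aged+Ri against young, Psat1 was 0.20 with young 1 alone and Phgdh -0.046 with the stricter filter. Leaving out 1 library gave -0.65 to 0.12 for Ddit4, -0.31 to 1.00 for Sesn2, -0.62 to 0.093 for Psat1 and -0.34 to 0.86 for Phgdh.

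Same-numbered libraries deviated from their group means with correlations from -0.10 to 0.11, and differently numbered ones with correlations from -0.14 to 0.15. The numbers were not taken as pairs, though this check cannot exclude pairing. Most same-numbered libraries share a sequencing batch (aged+Ri 3 does not, and young 1 does in part). With the replicate block Asns was 3.80 for aged+Ri against young (edgeR adjusted p = 0.00354), and no member's call changed. Sesn2 has no value under the stricter filter, which removed it. Sesn2 rested on 41 to 327 counts a library.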
